A study of Mus musculus with 4 samples.

Results

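Chromatin accessibility was examined at 8 genes that take up, release or bind fatty acids and modified lipoproteins: Cd36, Msr1, Vldlr, Lpl, Slc27a1, Slc27a4, Fabp4 and Fabp5. The assay was ATAC-seq, where a transposase (Tn5) cuts and tags open DNA, and accessibility is given here as the peaks that the authors called in each library. A gene's window was its RefSeq body in mm10 extended by 10 kb on each side. Overlapping peaks of the 4 libraries (by 1 bp or more) were joined into regions, and 21 of the 45299 regions of the series fell in these windows. The libraries came from Gr1+CD11b+ myeloid-derived suppressor cells (MDSCs), immature myeloid cells that dampen T cell responses, sorted from the ascites of mice that had received EL4 cells, a mouse T lymphoma line, 14 days earlier. Mice were wild type (WT, 2 libraries) or lacked sphingosine kinase 2, a lipid kinase that makes sphingosine 1-phosphate (Sphk2 KO, 2 libraries). All groups thus carried EL4 cells, and each library was made from 20000 cells with 40% of the recommended Tn5. The labels do not say whether cells of several mice were pooled. The series title ties the study to lipid metabolism in MDSCs, and the genes below handle the first steps of lipid entry.

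Long-chain fatty acids reach myeloid cells free, bound to albumin, or inside lipoproteins. Lipoprotein lipase (Lpl) frees them from triglyceride, scavenger receptors such as Cd36 and Msr1 take up fatty acids or modified lipoproteins, and Vldlr takes up triglyceride-rich lipoproteins. The transport proteins encoded by Slc27a1 and Slc27a4 (FATP1 and FATP4) couple entry to activation with coenzyme A, and the small carriers Fabp4 and Fabp5 hold fatty acids in the cytosol. Lipid uptake through such receptors is a known feature of tumour-associated myeloid cells.

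The WT lists rested on 33859480 and 34443062 kept fragments and the Sphk2 KO lists on 25877428 and 27686223. The 4 lists held 31507, 31843, 20759 and 27446 peaks, always given in the order WT replicates 1 and 2, then Sphk2 KO replicates 1 and 2. Of the regions that overlap Sphk2 itself, which also overlap Rpl18, 1 was called in all 4 libraries and 1 in the 2 Sphk2 KO libraries alone. Of 12 markers of granulocytic and monocytic cells, 9, 8, 7 and 8 had a peak at or within 1 kb of either gene end (a gene-end peak), among them Itgam, the gene for CD11b, in all 4 libraries. In the same list Ly6g, Ccr2 and Mpo had none in any library, and Ly6c2 lacked one in Sphk2 KO replicate 1 only. None of 6 B cell and none of 7 endothelial markers had one in any library, and of 5 adipocyte markers only Retn had one, in all 4. Of 10 T cell markers, which EL4 cells could also carry, 2, 5, 2 and 1 had one.

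Where a start site had a peak, the promoter can be read beside it. The sequence is shown for the pair of transporter genes whose start site had a peak in every library, and for Cd36 and Vldlr, whose start sites had none. RefSeq's promoter table (GRCm38.p6, the mm10 assembly) holds 7 entries for 4 of the 8 members, each running from 250 bases before to 50 bases after a start site. The windows are chr2:29802384-29802683 on the plus strand for Slc27a4, chr8:71570344-71570643 on the plus strand for the third listed start of Slc27a1, chr5:17835847-17836146 on the minus strand for Cd36, and chr19:27216770-27217069 on the plus strand for the second listed start of Vldlr. Capitals mark the GC box, GGGCGG, and the CCAAT box, spelled as its name. They also mark AGGTCA, the hexamer read by nuclear receptors such as the PPARs. Each was searched on both strands.
Slc27a4: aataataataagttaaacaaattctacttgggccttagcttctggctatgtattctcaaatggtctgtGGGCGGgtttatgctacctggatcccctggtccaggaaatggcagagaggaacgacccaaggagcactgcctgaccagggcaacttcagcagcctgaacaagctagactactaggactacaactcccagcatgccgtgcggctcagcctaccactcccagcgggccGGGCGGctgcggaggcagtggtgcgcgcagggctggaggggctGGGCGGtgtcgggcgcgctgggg
Slc27a1: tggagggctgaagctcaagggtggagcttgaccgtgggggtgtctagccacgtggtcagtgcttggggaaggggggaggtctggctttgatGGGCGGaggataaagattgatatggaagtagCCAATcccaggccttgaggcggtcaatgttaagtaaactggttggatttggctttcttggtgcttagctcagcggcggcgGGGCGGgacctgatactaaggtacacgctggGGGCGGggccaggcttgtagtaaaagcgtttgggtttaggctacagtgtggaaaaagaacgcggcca
Cd36: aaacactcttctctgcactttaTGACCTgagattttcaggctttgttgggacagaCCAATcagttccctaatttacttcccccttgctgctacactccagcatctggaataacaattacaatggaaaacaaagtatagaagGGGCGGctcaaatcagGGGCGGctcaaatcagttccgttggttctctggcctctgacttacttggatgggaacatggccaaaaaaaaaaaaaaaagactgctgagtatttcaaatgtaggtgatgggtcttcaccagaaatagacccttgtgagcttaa
Vldlr: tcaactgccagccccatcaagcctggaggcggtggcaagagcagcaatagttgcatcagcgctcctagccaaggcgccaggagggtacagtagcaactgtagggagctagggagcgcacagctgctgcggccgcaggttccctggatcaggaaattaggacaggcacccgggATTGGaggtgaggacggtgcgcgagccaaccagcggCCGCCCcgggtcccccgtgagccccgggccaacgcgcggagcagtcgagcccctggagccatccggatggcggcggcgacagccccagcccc
The Slc27a4 window holds 3 GC boxes, 14 CpG pairs and 58.7% G and C, and the Slc27a1 window 3 GC boxes, 1 CCAAT box, 13 CpG pairs and 56.3%. Cd36 has 2 GC boxes, 1 CCAAT box and 1 such hexamer in a window of 3 CpG pairs and 43.0% G and C. The Vldlr window, the richest of these in CpG with 23 pairs and 68.0% G and C, has 1 GC box and 1 CCAAT box. Among all 32851 promoter windows of the table, 35.7% hold a GC box, 37.4% a CCAAT box and 16.3% the hexamer. The full PPAR repeat AGGTCANAGGTCA is in 13 windows of the table and in none of these 4.

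Over all promoter windows, 28.9% were overlapped by a peak in all 4 libraries and 63.8% by no peak. Windows with a peak in all 4 libraries had a median of 23 CpG pairs and windows with none a median of 4. The Slc27a4 and Slc27a1 windows above were covered in all 4 libraries with CpG counts between these medians. The Vldlr window was covered in none, although its CpG count equals the median of covered windows. Cd36, with 3 CpG pairs, was also covered in none. Its 1 listed start site, at 17835896, lies inside the gene body and not at the upper-coordinate end. These motif matches are descriptions of letters and say nothing of a factor at the site.

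Summed over the 8 genes, more regions were called in each WT library than in each Sphk2 KO library. Only Cd36 showed this order by itself, with 6 and 3 regions in WT against 1 and 2 in Sphk2 KO. Without Cd36, WT replicate 1 did not exceed Sphk2 KO replicate 2. Of the 21 regions, the WT libraries called 15 and 16 and the Sphk2 KO libraries 7 and 11. The means were 15.5 ± 0.707 and 9 ± 2.83 regions (SD, n = 2), a difference of 6.5, with p = 0.333 in a two-sided exact permutation test. That is the smallest p that 2 libraries against 2 allow, so the test cannot reach 0.05, and it measures only the spread between libraries, which the labels call biological replicates without tying them to animals. Peaks covered 7629 and 8989 bases of the windows in WT against 4394 and 7156 in Sphk2 KO (difference 2534 bases, exact permutation p = 0.333). Over the whole series the same order held, with 68.0% and 69.4% of all regions called in WT against 44.7% and 60.1% in Sphk2 KO. For the members these shares were 71.4% and 76.2% in WT against 33.3% and 52.4% in Sphk2 KO. Regions in the windows of T cell, adipocyte and endothelial markers also moved this way: 62.5% and 87.5% of 16 T cell marker regions were called in WT against 37.5% and 50% in Sphk2 KO. For 13 adipocyte marker regions the shares were 92.3% and 69.2% against 46.2% and 61.5%, and of 2 endothelial marker regions 2 and 1 were called against 0 and 0. The other marker lists did not show this order. Of 44 granulocytic and monocytic marker regions, 65.9% and 77.3% were called in WT against 61.4% and 79.5% in Sphk2 KO. For 13 macrophage marker regions the shares were 61.5% and 53.8% against 30.8% and 69.2%. Those of 4 B cell marker regions were 100% and 50% against 50% and 50%. The part of such cells in the member counts was not tested. With the same number of top peaks taken from each list, the WT libraries called 9 and 9 member regions and the Sphk2 KO libraries 7 and 6, a difference of 2.5. Fewer kept fragments in both Sphk2 KO libraries cannot be told apart from genotype here. In a bulk library, fewer open cells and less open chromatin per cell also cannot be told apart.

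**Figure D1:**
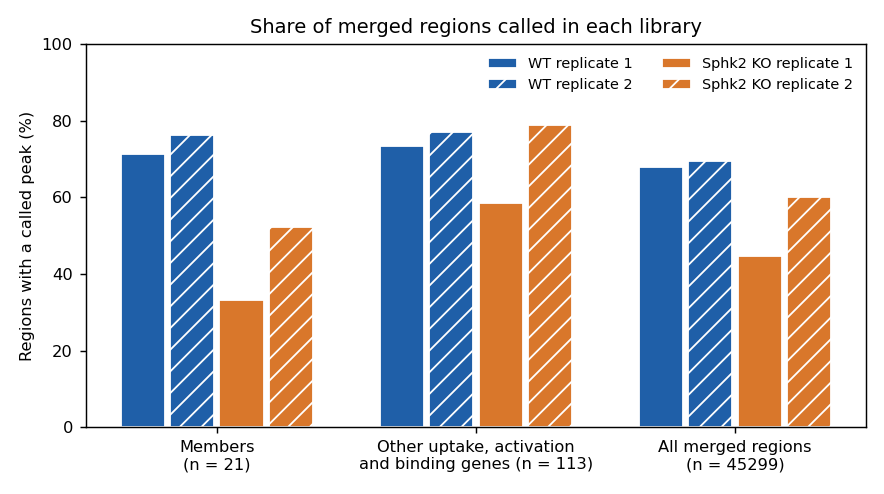
Share of merged regions with a called peak, in percent, for each library (bars), for the 21 regions of the 8 members, the 113 regions of 48 other uptake, activation and binding genes, and all 45299 regions. The Sphk2 KO bars are the lowest among the members (33.3% and 52.4%), while Sphk2 KO replicate 2 has the highest bar (78.8%) among the other uptake genes.

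Sorted by presence, 5 of the 21 regions (23.8%) were called in all 4 libraries, against 37.5% of all regions. These 5 lie in the windows of Cd36, Slc27a1 and Slc27a4. WT-only regions, called in both WT libraries but not in Sphk2 KO, numbered 2 of 21 (9.52%), against 5.43% of all regions, and lay at Cd36 and Slc27a1. The reverse, a Sphk2 KO-only region, was found once among the 21 (4.76%), against 0.605% of all regions, in the Slc27a1 window. A further 7 regions (33.3%) were called in 1 library only, against 41.9% of all regions. With so few regions these shares are descriptions. Leaving out WT replicate 1, WT replicate 2 or Sphk2 KO replicate 2 gave 6, 7 and 5 WT-only regions, where the shares over all regions became 23.5%, 23.8% and 13.8%. Without Sphk2 KO replicate 1 there were 3, against 6.22% of all regions, and 8 regions rather than 5 were called in every remaining library, against 46.4%. With the same number of top peaks taken from each list, the only WT-only member region was chr5:17857358-17858366 at Cd36, where 3.54% of all regions were WT-only, and no member region was Sphk2 KO-only, against 1.95%.

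**Figure D2:**
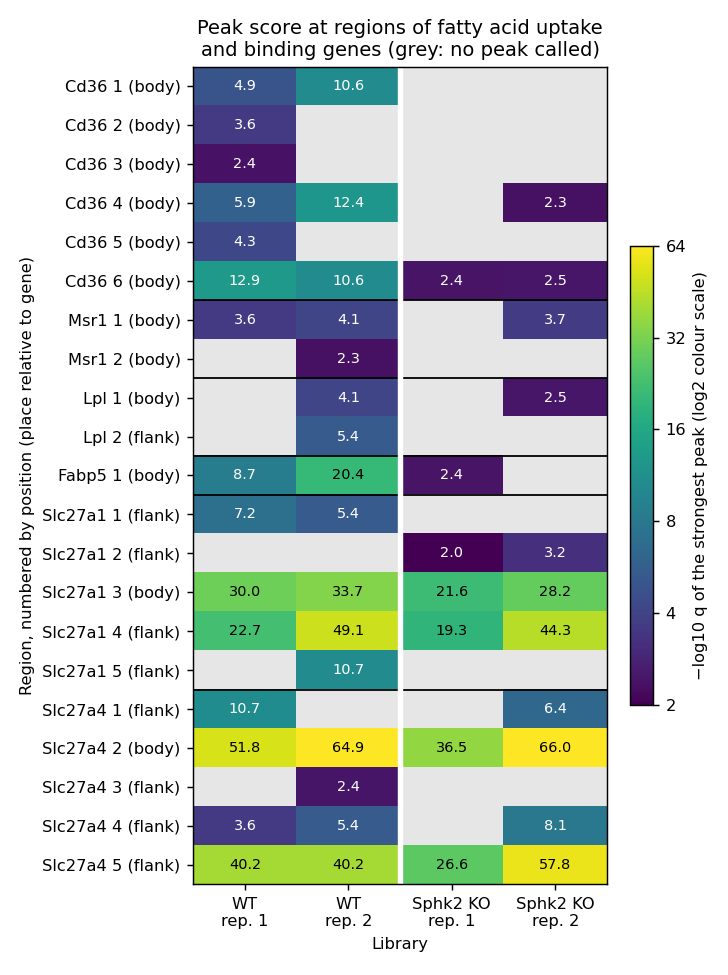
The −log10 q of the strongest peak (printed and as colour on a log2 scale) for each of the 21 regions (rows, numbered by position within a gene) in each library (columns); grey cells had no called peak. The Cd36 rows are mostly grey in Sphk2 KO, and the regions of Slc27a1 and Slc27a4 called in all 4 libraries have the highest values.

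Cd36, the scavenger receptor and fatty acid translocase, was the member with more called regions in each WT library than in each Sphk2 KO library. Its window (chr5:17781690-17888959, minus strand, plus 10 kb on each side) held 6 regions, all inside the gene body, of which 6 and 3 were called in WT against 1 and 2 in Sphk2 KO. That order was found at 7.46% of 21883 protein-coding gene windows, and at none of the other 7 members. The share covers windows of all sizes, 30.5% of which held no region and could not show it. The Cd36 window, 127270 bp, was the largest of the members, and the share among windows of like size was not computed. Peaks covered 1678 and 1387 bases of its window in WT against 190 and 825 in Sphk2 KO. The Fabp5 and Slc27a1 windows had the same order in covered bases. Covered bases were computed for the members only, so the share of all gene windows with this order is not known.

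The region called in every library lay at chr5:17879935-17880400, 8559 bp inside the upper-coordinate gene end. Its −log10 q, the peak caller's score, was 12.9 and 10.6 in WT against 2.39 and 2.47 in Sphk2 KO. The fold enrichment over local background was 6.19 and 5.30 in WT against 3.26 and 3.12 in Sphk2 KO. Both scores were thus higher in both WT libraries, and the Sphk2 KO values lay near the calling limit of 1.30. The peaks were 456 and 440 bp wide in WT against 190 and 243 bp in Sphk2 KO. Since scores depend on depth, each peak was also ranked within its own list, as a percentile with 100 for the strongest peak. This region stood at percentiles 51.8 and 44.2 in WT against 4.74 and 6.92 in Sphk2 KO. These lists differ in length, and the mean difference of 42.2 became 13.1 among regions called in all 4 libraries. With the same number of top peaks from each list it was 15.9. That value used Sphk2 KO replicate 1 alone, since Sphk2 KO replicate 2 no longer called the region. With equal top peaks, or at a −log10 q of at least 5, this region was no longer called in all 4 libraries. Pileup, the number of fragments stacked at the summit and not scaled to depth, was 27 and 26 in WT against 12 and 13.

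The WT-only region of Cd36 lay at chr5:17839452-17839910, 3556 bp upstream of the start site whose promoter is printed above. That start site, at 17835896, lies inside the gene body and not at its upper-coordinate end. The region itself lay 54.1% of the way along the body from the lower-coordinate end. It had −log10 q 4.94 and 10.6 in WT replicates 1 and 2, with fold enrichments of 3.98 and 5.30 and percentiles of 30.1 and 44.2. Another region, chr5:17857358-17858366, was called in 3 libraries, with −log10 q 5.89 and 12.4 in WT and 2.35 in Sphk2 KO replicate 2. Its percentiles were 34.2 and 47.7 in WT and 4.92 in that Sphk2 KO library. The summits lay apart, on bases 17857428 and 17857489 in WT and on 17858037 in Sphk2 KO replicate 2. With windows of 250 bp around summits, the WT peaks of this region counted as WT-only. The other 3 regions of the gene were called in WT replicate 1 alone, with −log10 q from 2.38 to 4.26. Where a Sphk2 KO library called a region of Cd36, its score was thus below both WT scores. At chr5:17857358-17858366 these scores belong to peaks with different summits. The remaining regions of the gene had no Sphk2 KO score to compare. Macrophages are a common site of Cd36 expression, and of 10 macrophage markers 4 and 4 had a gene-end peak in WT against 1 and 3 in Sphk2 KO. Over the 13 regions of that list, 8 and 7 were called in WT against 4 and 9 in Sphk2 KO. Adgre1, which encodes F4/80, had a gene-end peak in all 4 libraries, and Cd163, Mrc1, Timd4, C1qa and Vcam1 had none in any. The part of such cells in the Cd36 result was not tested.

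**Figure D3:**
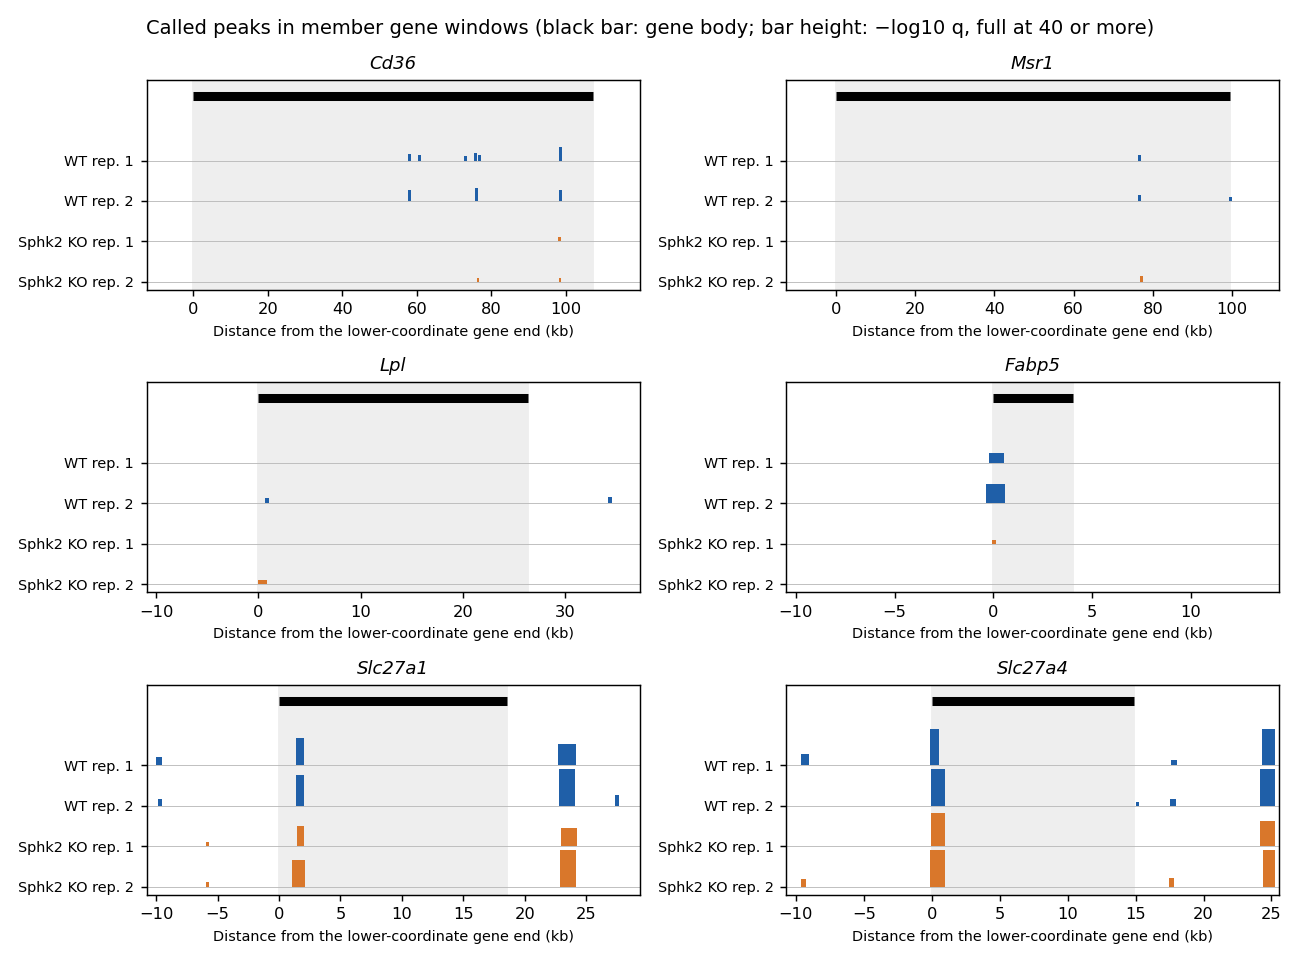
Peaks called in each library (rows, WT in blue and Sphk2 KO in orange) across the windows of the 6 members with any region, by distance in kb from the lower-coordinate gene end. Grey shading and the black bar mark the gene body, bar height is −log10 q up to 40, and the narrowest peaks are widened to stay visible; Cd36 peaks lie within the gene body and fewer are drawn in the Sphk2 KO rows.

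Msr1, the class A scavenger receptor for modified lipoproteins, held 2 weak regions. The region at chr8:39619632-39620531, inside the gene (chr8:39543232-39642750), was called in 3 libraries. Its −log10 q was 3.61 and 4.11 in WT and 3.71 in Sphk2 KO replicate 2, with percentiles of 22.2, 22.0 and 15.1. These scores lay close together, and Sphk2 KO replicate 1, the library with the fewest fragments, had no call. The part of depth in that missing call was not tested. The summits did not coincide: they fell on bases 39619929 and 39619919 in WT and on 39620413 in Sphk2 KO replicate 2, and with windows of 250 bp around summits the WT peaks counted as WT-only. Over the upper-coordinate gene end, chr8:39642726-39642939 was called in WT replicate 2 only, with −log10 q 2.34. Msr1 is a macrophage gene as well; the part of such cells, whose marker counts are given beside Cd36, was not tested here either.

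Vldlr, the receptor for very-low-density lipoprotein, had no peak in any library. Its gene (chr19:27216480-27254231, plus strand) had its nearest regions 371 kb below and 175 kb above. Fabp4, the carrier typical of adipocytes and some macrophages, also had none within 10 kb of its body (chr3:10204342-10208616). The nearest regions lay 191 kb below and 40.8 kb above it. A window with no region is common: 30.5% of protein-coding genes had none, and 2 of the 8 members did. Lack of a call at this depth does not show closed chromatin.

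Fabp5, the carrier found in skin and in many myeloid cells, had 1 region, over the lower-coordinate end of the gene (chr3:10012585-10016610). The region, chr3:10012230-10013158, had −log10 q 8.69 and 20.4 in WT and 2.39 in Sphk2 KO replicate 1, with no call in Sphk2 KO replicate 2. Fold enrichment was 5.08 and 7.46 in WT and 3.26 in the Sphk2 KO library. In percentiles of each list it stood at 42.6 and 59.1 in WT and at 4.74 in Sphk2 KO replicate 1. The WT peaks spanned 797 and 929 bp, and the single Sphk2 KO peak 218 bp. The rank difference of 46.1 became 20.3 with the same number of top peaks from each list. Score, fold enrichment and width were lower in the Sphk2 KO library that called it than in both WT libraries. The part of depth in these values and in the missing call was not tested. A WT-only gene-end peak was found at 1.27% of protein-coding genes and at none of the 8 members.

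Lpl, the secreted lipase that frees fatty acids from lipoprotein triglyceride, held 2 regions with low scores. The region over the lower-coordinate end of the gene (chr8:68880555-68906932), chr8:68880543-68881563, had −log10 q 4.11 in WT replicate 2 and 2.47 in Sphk2 KO replicate 2. Its percentiles were 22.0 and 6.92. Each genotype thus had 1 library with a peak in this region and 1 without. The peaks overlapped, but their summits lay apart, on base 68881457 in WT and 68880920 in Sphk2 KO. The second region, chr8:68914715-68915172, lay 7783 bp above the gene and was called in WT replicate 2 only, with −log10 q 5.42.

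Slc27a4, which encodes FATP4, had the best-ranked peak among the members. The region chr2:29802519-29803620 covers the gene start (gene at chr2:29802634-29817522) and the promoter printed above. Its −log10 q was 51.8 and 64.9 in WT against 36.5 and 66.0 in Sphk2 KO, and its fold enrichment 11.0 and 10.6 in WT against 9.23 and 11.0. The values of the groups overlapped. The summit fell on base 29802649 or 29802650 in every library, within 16 bases of the annotated start. Within the lists it ranked at percentiles 81.4, 83.8, 73.8 and 78.0. A gene-end peak in all 4 libraries was present at 41.6% of protein-coding genes, and Slc27a4 was the only member with one within 1 kb of a gene end.

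The other 4 regions of this window lay outside the gene. The region chr2:29826789-29827894, over an end of Urm1, a sulfur carrier gene, was called in all 4 libraries, with −log10 q 40.2 and 40.2 in WT against 26.6 and 57.8 in Sphk2 KO. The remaining 3 were called in 1 to 3 libraries with −log10 q from 2.44 to 10.7, and none was specific to a genotype. At chr2:29820111-29820645, 2589 bp past the gene, Sphk2 KO replicate 2 had the highest score, 8.06, against 3.61 and 5.42 in WT.

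Slc27a1, which encodes FATP1, combined an even peak at a start site with weak regions that differed in their calls. The region chr8:71569783-71570829 lies inside the gene (chr8:71568728-71587307) over the third of its listed start sites, at 71570594. Its −log10 q was 30.0 and 33.7 in WT against 21.6 and 28.2 in Sphk2 KO, with fold enrichments of 7.60 and 7.14 in WT against 7.46 and 7.30 in Sphk2 KO. The scores were higher in both WT libraries, whereas the fold enrichments of the groups overlapped. The first and second listed start sites, at 71568871 and 71569597, had no peak over their promoter windows in any library.

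The best-ranked region of the Slc27a1 window, chr8:71591414-71592964, belongs by position to Pgls, a gene of the pentose phosphate pathway, 4107 bp past Slc27a1. Its −log10 q was 22.7 and 49.1 in WT against 19.3 and 44.3 in Sphk2 KO, so the libraries with the same replicate number lay closer than those of the same genotype. The WT-only region, chr8:71558746-71559211, lay 9517 bp below the gene and inside Tmem221, with −log10 q 7.21 and 5.38. The Sphk2 KO-only region, chr8:71562783-71563035, lay 5693 bp below the gene and inside Nxnl1, with −log10 q 2.00 and 3.20 and percentiles of 2.18 and 12.8. Both sit nearer to another gene than to Slc27a1, and the Sphk2 KO-only peaks were among the weakest of their lists. The fifth region, over Niban3 and Pgls, was called in WT replicate 2 only, with −log10 q 10.7.

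The WT lists had lower median −log10 q, 12.0 and 13.8 against 15.7 and 19.1 in Sphk2 KO, so percentiles within whole lists are not on 1 scale. In all, 54.2% of regions called in all 4 libraries had both WT percentiles above both Sphk2 KO percentiles and 2.50% the reverse, and among the 5 member regions 3 and 0 did. Percentiles were therefore also taken among the 16973 regions called in all 4 libraries, where both WT libraries were above both Sphk2 KO libraries at 21.3% of regions and below at 22.1%. On this scale 1 of the 5 member regions was above, at Cd36, and 1 below, beside Slc27a4. The Cd36 region stood at percentiles 17.7 and 9.28 in WT against 0.680 and 0.136 in Sphk2 KO, a mean of 13.5 ± 5.93 against 0.408 ± 0.385 (SD, n = 2). A larger difference in this direction was found at 6.03% of these regions. The Slc27a4 promoter stood at 65.6 and 69.6 in WT against 68.0 and 64.5 in Sphk2 KO, and the Slc27a1 start site at 45.3 and 43.9 against 50.2 and 34.7. For both of these the groups overlapped. The Urm1 region in the Slc27a4 window had 56.2 and 50.8 in WT against 57.2 and 59.9 in Sphk2 KO.

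**Figure D4:**
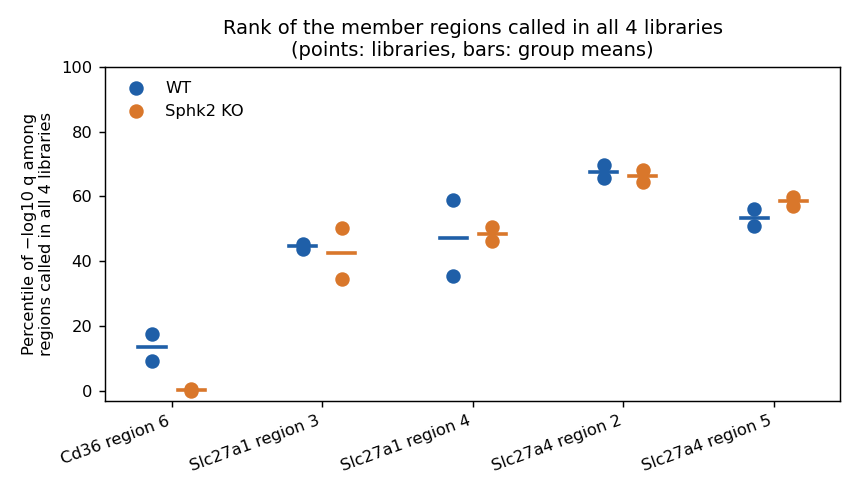
Percentile of −log10 q among the 16973 regions called in all 4 libraries (vertical axis, 100 is strongest) for the 5 member regions among them; points are libraries and bars group means (n = 2). WT and Sphk2 KO points overlap or lie close at the Slc27a1 and Slc27a4 regions, while at Cd36 both WT points lie above both Sphk2 KO points.

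Counted by gene, 3 of the 8 members had at least 1 region called in all 4 libraries (Cd36, Slc27a1 and Slc27a4), against 54.5% of protein-coding genes. A WT-only region was present at 2 members, Cd36 and Slc27a1, against 7.89% of genes, and a Sphk2 KO-only region at 1, Slc27a1, against 1.01%. No member had fewer regions in each WT library than in each Sphk2 KO library, a pattern found at 0.562% of genes.

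The list of 48 other genes of fatty acid and lipoprotein uptake, which includes further carriers, transporters, acyl-CoA synthetases, receptors and lipases, held 113 regions, of which 83 and 87 were called in WT against 66 and 89 in Sphk2 KO. In all, 57 of these (50.4%) were called in all 4 libraries, 5 (4.42%) were WT-only and 1 (0.885%) Sphk2 KO-only, against 37.5%, 5.43% and 0.605% of all regions. The genotype-specific shares thus lay near those of all regions. A gene-end peak in all 4 libraries was present at 17 of the 48 genes, against 41.6% of protein-coding genes, among them Acsl1, Acsl3, Acsl4 and Acsl5, which activate fatty acids, and the receptors Lrp1, Scarb1 and Olr1. None in any library was found at 24 genes, among them the carriers Fabp1, Fabp2, Fabp3, Fabp6, Fabp7, Fabp9 and Fabp12, so that Fabp5 was the only Fabp carrier examined with a gene-end peak in any library.

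WT-only regions of the list lay near Slc27a3, Scarb2, Lipg, Apoc2 and Fabp12. The best ranked, chr3:90383707-90384335, lay 895 bp from an end of Slc27a3, which encodes FATP3, with −log10 q 20.5 and 22.4 in WT. For Lipg, the endothelial lipase, the values were 12.5 and 12.5, and for Scarb2, a lysosomal membrane protein, 9.08 and 8.02. At Apoc2, the activator of Lpl, they were 14.7 and 7.55, and at Fabp12 2.38 and 4.76. The Sphk2 KO-only region lay near Ffar2, a receptor for short-chain fatty acids, at chr7:30832306-30832748, with −log10 q 3.17 and 12.4. It shares chromosome 7 with the Apoc2 region and with the regions over Sphk2, of which the Sphk2 KO-only one is chr7:45715043-45716683. The part of this shared chromosome in the calls was not tested.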

How the data were processed

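ATAC-seq peak lists of 4 libraries (2 WT, 2 Sphk2 KO) were used, grouped by the submitters' titles. Per the submitters' processing notes, cutadapt, BWA, MACS2 and the build mm10 were used. Per the file headers, peaks were called in each library on its own with MACS 2.1.1.20160309, with no control and a q-value limit of 0.05, keeping 1 fragment per position and using a local background of 10 kb. The deposited lists give a pileup (a coverage signal not scaled to depth), the −log10 of the p-value and of the q-value, and a fold enrichment, a ratio over local background, all as the authors' caller gave them. Such values serve here to describe a peak and to rank it in its own list. A shift of fragment ends for Tn5 is not stated in the labels or headers.

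Peaks were merged across libraries at 1 bp of overlap (Python 3.11.15, pandas 2.3.3, numpy 2.4.6, scipy 1.17.1), and a region's score in a library is that of its strongest peak. Gene bodies and promoters came from RefSeq tables of GRCm38.p6, the mm10 assembly, with 21883 protein-coding genes. Gene-end peaks lay within 1 kb of either end. A gene's strand was taken from the promoter table, otherwise the lower- or upper-coordinate end is named. No exons were used. Every member is described; regions over a gene start or end, the best-ranked region and the genotype-specific regions are given in full, and other genes of the list are named where their window holds a genotype-specific region. Further names in the text were chosen after their values were seen. The members and gene lists were chosen with earlier results of these data known. Trbc1, of the T cell list, was not in the gene table. Counts per library were compared with a two-sided exact permutation test. The merging and calling steps were tested on simulated data. The alternatives were summit windows of 250 bp, a −log10 q of at least 5, equal numbers of top peaks, other gene windows, ranks by fold enrichment, each library left out and a replicate block. Leaving out regions over other genes and ranking among shared regions were added after seeing the data.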

Additional observations from a re-analysis of the deposited data

How the results depend on the processing

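Depth limits how an absent call can be read: Sphk2 KO lists rest on fewer fragments, and no read counts per region were used. The part of depth in the absent calls was not tested. Of 71 alternative values, 46 counted as kept, 23 as moved and 2 as reversed. A difference in regions per library was kept if its direction held. A number of regions was kept if it was equal to the main value or within a fixed ratio of it. A percentile difference was kept if its direction held and it changed by less than the larger SD within a group. No p-value entered these labels. The 2 WT-only member regions became 4 with summit windows, 4 at a −log10 q of at least 5 (2 at Cd36, 1 at Fabp5 and 1 in the Slc27a1 window), 1 with equal numbers of top peaks, 1 in gene bodies alone, 4 with windows of 50 kb and 1 without regions over other genes, and ranged from 3 to 7 with a library left out. The 1 Sphk2 KO-only region became 0 at a −log10 q of at least 5, with equal top peaks, in gene bodies alone and without regions over other genes. The 5 regions called in all 4 libraries became 4 at a −log10 q of at least 5 and 4 with equal top peaks, the Cd36 region being lost in both, 3 in gene bodies alone, 13 with windows of 50 kb and 3 without regions over other genes, and ranged from 5 to 8 with a library left out. The difference of 6.5 regions per library ranged from 2.5 (equal top peaks) to 11 (50 kb) and from 4.5 to 8.5 with a library left out.

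The WT minus Sphk2 KO difference in the percentile of the best-ranked region was 42.2 at Cd36, 15.9 with equal top peaks and 13.1 among shared regions. The 15.9 used Sphk2 KO replicate 1 alone. At Fabp5 the difference was 46.1, and 20.3 with equal top peaks, both with Sphk2 KO replicate 1 alone. For Slc27a4 it was 6.66, then 1.05 and 1.32 in the same order. In the Slc27a1 window it was 8.64, reversed to -1.52 and -1.26, and ranged from 1.85 to 15.4 with a library left out. At Msr1 it was 6.98, and 6.68 ranked by fold enrichment; with equal top peaks no Msr1 value could be given. The cause of these changes was not tested.

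Replicate numbers are shared by the genotypes, but the differences between replicates 1 and 2 were nearly uncorrelated between genotypes (r = 0.0117 over 16973 shared regions, regions not being independent), so they were taken as numbers only. With a replicate block the difference of 6.5 regions had an exact permutation p of 0.5, the smallest that 2 pairs allow.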

Other observations

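Beyond 10 kb from the members, further regions were present up to 50 kb. The strongest near a lipid carrier lay 28.1 kb below Fabp5, at chr3:9983436-9984477, overlapped no protein-coding gene and was called in all 4 libraries, with −log10 q 41.5 and 40.7 in WT against 20.5 and 43.5 in Sphk2 KO. Its scores overlapped between the genotypes. A region 19.4 kb above Lpl, chr8:68926369-68927059, had −log10 q 7.90 and 7.55 in WT and 4.38 in Sphk2 KO replicate 2, with no call in Sphk2 KO replicate 1.

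Above Fabp4, both regions within 50 kb lay inside Fabp12, and neither was called in a Sphk2 KO library. The nearer was called in WT replicate 1 only, with −log10 q 6.38, as were 41.9% of all regions in some single library. The other is the weak WT-only region named above, with −log10 q 2.38 and 4.76, a class that held 5.43% of all regions. Below Slc27a1, a region over an end of Bst2, the interferon-induced gene for tetherin, had −log10 q 58.8 and 58.4 in WT against 18.1 and 39.2 in Sphk2 KO. The WT scores lay above those of Sphk2 KO there, while over Mvb12a, 25.4 kb below Slc27a1, they were 101 and 119.5 in WT against 79.3 and 122 in Sphk2 KO and overlapped. These scores depend on depth, and the share of all regions with the order seen over Bst2 was not computed. By percentile within whole lists, 54.2% of regions called in all 4 libraries had both WT values above both Sphk2 KO values.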
